A study of Mus musculus with 22 samples.

Results

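RING1B peaks that carried H2AK119ub1 and had no PCGF6 in the mouse intestinal crypt were described across 16 ChIP-seq peak lists. The sites, called members here, were the peaks of the Villin WT RING1B list that shared at least 1 bp with a Villin WT H2AK119ub1 peak and shared none with an AhCre WT PCGF6 peak. This rule kept 1054 of 4403 RING1B peaks. The members were thus chosen by the measured presence of a peak in these 3 lists, and values from those lists are given as description only. Of the other 3349 peaks, 802 had both PCGF6 and H2AK119ub1, 1943 had PCGF6 without H2AK119ub1, and 604 had neither. Crypts are the pits of the small intestinal epithelium where its stem cells divide. All crypt samples came from C57BL/6 mice and were either Pcgf6 KO or WT. The KO was induced with tamoxifen in the Villin line, whose Cre is driven in the intestinal epithelium, and with BNF (beta-naphthoflavone) in the AhCre line, and the study's design text gives males of 8 to 12 weeks taken 7 days after induction. That text was written for RNA samples, and whether it holds for the chromatin is not stated. The embryonic stem cells (ESC) were WT cells of the E14 line. PCGF6 was profiled in AhCre crypts only among the crypt samples, so the absence of PCGF6 is that of another line than the RING1B peak.

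Polycomb repressive complex 1 (PRC1) is a family of complexes built on RING1A or RING1B, the ubiquitin ligases that place a single ubiquitin on a lysine of histone H2A, the mark H2AK119ub1. Each complex holds one of several PCGF proteins. Canonical PRC1 holds PCGF2 or PCGF4 (BMI1) with a CBX protein that binds the H3K27me3 mark of PRC2, and it gathers at the silent CpG islands of developmental regulators such as the Hox genes. PCGF6 marks a variant complex, PRC1.6, which also holds MGA, MAX, L3MBTL2 and E2F6 and is known in ESC for keeping germline genes silent.

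The sequences under a few members are printed as examples. The 300-base windows run from 250 bases before to 50 bases after a transcription start (RefSeq, GRCm38.p6, 5′ to 3′ on the strand of the gene), with every CpG in capitals. Hmx2 and Dmbx1, homeobox genes of the developing nervous system, stand for the strongest members. Gli2, a transcription factor of Hedgehog signalling, stands for members that lost RING1B in both KO lines. Sox2, a pluripotency factor, and Ap1s2, an adaptor protein gene, stand for members with no RING1B in ESC. Ndrg3 had the strongest RING1B peak with PCGF6 and without H2AK119ub1 over a promoter window and is shown for comparison.
Hmx2 (chr7:131554043-131554342, + strand): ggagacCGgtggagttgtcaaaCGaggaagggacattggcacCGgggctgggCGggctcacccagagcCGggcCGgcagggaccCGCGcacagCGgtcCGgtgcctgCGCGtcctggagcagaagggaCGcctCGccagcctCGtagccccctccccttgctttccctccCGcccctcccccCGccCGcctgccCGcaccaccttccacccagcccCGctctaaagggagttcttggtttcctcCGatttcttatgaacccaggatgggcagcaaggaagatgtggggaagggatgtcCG
Dmbx1 (chr4:115939877-115940176, - strand): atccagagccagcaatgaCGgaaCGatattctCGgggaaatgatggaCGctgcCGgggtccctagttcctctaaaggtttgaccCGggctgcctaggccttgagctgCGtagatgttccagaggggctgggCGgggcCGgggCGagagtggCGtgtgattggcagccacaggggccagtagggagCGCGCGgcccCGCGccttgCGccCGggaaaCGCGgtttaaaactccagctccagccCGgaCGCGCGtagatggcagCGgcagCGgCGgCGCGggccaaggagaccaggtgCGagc
Gli2 (chr1:119053570-119053869, - strand): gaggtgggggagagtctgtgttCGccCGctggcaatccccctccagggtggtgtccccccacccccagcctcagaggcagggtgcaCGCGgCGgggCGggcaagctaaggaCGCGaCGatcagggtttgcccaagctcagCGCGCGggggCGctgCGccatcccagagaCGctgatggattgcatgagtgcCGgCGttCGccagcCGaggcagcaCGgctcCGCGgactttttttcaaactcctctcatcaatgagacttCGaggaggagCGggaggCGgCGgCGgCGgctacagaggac
Sox2 (chr3:34649745-34650044, + strand): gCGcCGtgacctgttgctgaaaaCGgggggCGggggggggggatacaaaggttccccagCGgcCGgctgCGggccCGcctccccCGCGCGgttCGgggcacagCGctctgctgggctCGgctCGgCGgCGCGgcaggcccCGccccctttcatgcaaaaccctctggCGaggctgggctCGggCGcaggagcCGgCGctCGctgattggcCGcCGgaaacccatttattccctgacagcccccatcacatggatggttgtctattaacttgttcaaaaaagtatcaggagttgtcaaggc
Ap1s2 (chrX:163908767-163909066, + strand): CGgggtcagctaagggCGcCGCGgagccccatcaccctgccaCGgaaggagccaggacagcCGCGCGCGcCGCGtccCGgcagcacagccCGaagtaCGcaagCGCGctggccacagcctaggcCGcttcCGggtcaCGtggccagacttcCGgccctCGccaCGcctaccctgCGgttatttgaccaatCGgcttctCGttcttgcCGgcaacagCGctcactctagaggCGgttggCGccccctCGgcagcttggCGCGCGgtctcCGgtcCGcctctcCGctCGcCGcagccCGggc
Ndrg3 (chr2:156992062-156992361, - strand): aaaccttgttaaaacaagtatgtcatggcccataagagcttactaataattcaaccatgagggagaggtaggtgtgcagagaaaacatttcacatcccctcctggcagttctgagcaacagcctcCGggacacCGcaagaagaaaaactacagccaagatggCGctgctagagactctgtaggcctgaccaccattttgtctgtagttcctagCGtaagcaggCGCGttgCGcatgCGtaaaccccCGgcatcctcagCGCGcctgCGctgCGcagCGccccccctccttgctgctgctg

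These windows held 22 CpG at Hmx2, 30 at Dmbx1, 28 at Gli2, 27 at Sox2 and 39 at Ap1s2, against 14 at Ndrg3. Promoter windows were at hand for 17492 of 21887 protein-coding genes, and 350 windows of 315 genes lay under a member. Their median GC content was 64.3% and their median CpG count 21, against 56.3% and 13 over all 21263 windows. The windows under RING1B with PCGF6 and without H2AK119ub1 had the same median GC content, 64.3%, and a higher median CpG count, 25. The low count at Ndrg3 is thus not typical of its class. Those under RING1B with both had 65.3% and 23. The printed windows of members all lay above the members' median of 21 CpG, so they are not typical of their class either. Of windows not printed, that of Shisa3 held 28 CpG and that of Utf1 held 17.

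Motifs were searched as letters on both strands, allowing overlaps between motifs, and a match is no more than those letters. The E-box CACGTG, the letters bound by MAX and MGA, was in 4.86% of the windows under members, against 13.3% under RING1B with both PCGF6 and H2AK119ub1, 17.5% under RING1B with PCGF6 only and 7.84% of all windows. Of the printed windows, only that of Ap1s2 held it. The NRF1 palindrome, GCGC and TGCGC with any 1 base between them, was in 1.14% under members, 5.51% with both, 16.4% with PCGF6 only and 6.38% of all windows, and the window of Ndrg3 held it. The ETS letters CCGGAAG followed the same order, in 3.43%, 5.01%, 18.9% and 11.6%. Members were thus below all windows for these 3 motifs, which are known from promoters of broadly active genes. The E2F letters TTCCCGC were in 8.86% under members, 11.3% with both, 11.9% with PCGF6 only and 5.95% of all windows. The GC box GGGCGG was in 68.0%, 72.7%, 74.2% and 46.2%, so for these letters the members lay above all windows and below both PCGF6 classes. Under members and in all windows, the CCAAT box in 35.1% and 38.2%, TATAAA in 9.43% and 12.6%, and the T-box letters TCACACCT in 0.571% and 1.15%, or 2 windows under members.

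**Figure D1:**
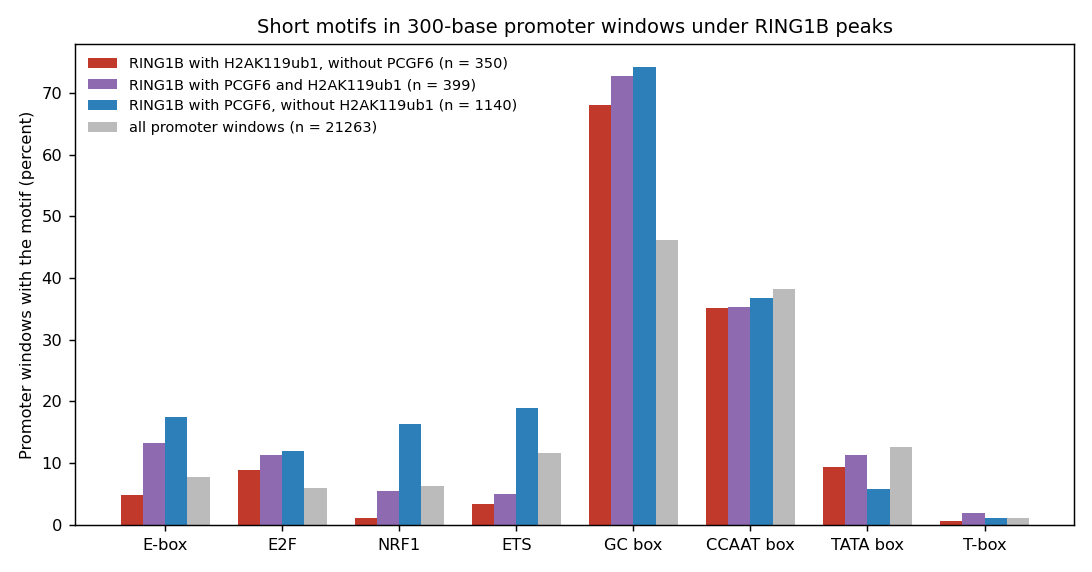
Percent of 300-base promoter windows (y axis) that held each short motif (x axis), for windows under members (n = 350), under RING1B with PCGF6 and H2AK119ub1 (n = 399), under RING1B with PCGF6 only (n = 1140) and for all windows (n = 21263). For the E-box, NRF1 and ETS letters the members' bars are the lowest, and for the GC box they stand at 68.0%, against 72.7% and 74.2% under the PCGF6 classes and 46.2% of all windows.

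Every group had 1 library, so no difference between genotypes or cell types could be tested, and intervals in brackets are exact 95% binomial intervals that cover counting error over peaks only. The score of a peak is the authors' −log10 p (or q, which is not stated), with 10 as the lowest score listed. Scores are not scaled between libraries. KO and WT scores of a site are printed side by side as listed, and their difference is not a measure of gained or lost binding. A peak is called lost when a WT peak overlaps the site and no KO peak does, and a site of lower signal that falls under the listing threshold counts as lost too. Read depth is unknown from such lists. In chromatin of mixed crypt cells, fewer cells with a bound site and less binding per cell cannot be told apart.

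Peaks with H2AK119ub1, with or without PCGF6, were the strong and wide part of the Villin WT RING1B list, which describes the rule and is not a finding. The members' median score there was 18.2 (10.0 to 837), against 19.5 for peaks with both PCGF6 and H2AK119ub1 and 14.2 for all other peaks. Their median width was 1359 bp (336 to 22904), against 1236 bp (up to 45498) with both and 758 bp for all other peaks. Of the members, 118 (11.2%) were 5000 bp or wider, against 71 (8.85%) with both and 76 (2.27%) of all others. The members sat in 1190 of 6219 H2AK119ub1 peaks of Villin WT crypts. The H2AK119ub1 peaks that held a member had a median width of 1783.5 bp, against 1035 bp for those that held none. H2AK119ub1 covered a median of 86.0% of the member, and 313 members (29.7%) lay wholly inside it. The nearest PCGF6 peak was at a median distance of 34271 bp, and 50 members (4.74%) had one within 1 kb. In the AhCre KO PCGF6 list, 2 members (0.190%) had a peak, and of the 2745 other RING1B peaks chosen out for their WT PCGF6 peak, 54.6% had none in that KO list.

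The edge of the rule was thin on both sides. The members at the DNA helicase gene Pif1 and at Tcf15 ended 6 and 29 bp from a PCGF6 peak, while peaks at Fhod1 and Slc9a5, Grhl1 and Bcl2 were left out for overlaps of 66 bp or more. The smallest H2AK119ub1 overlap of a member was 3 bp, and the nearest peak left out on that side ended 1 bp short.

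RING1B stayed in the KO lists at most members. In Villin KO crypts 334 of 1054 members (31.7%, 28.9 to 34.6) had no RING1B peak, against 62.4% (60.7 to 64.1) of the other RING1B peaks and 55.1% of all. The KO list held 2464 peaks and the WT list 4403, and with lists cut to equal length 16.6% (14 to 19.5) of members were lost, against 42.7% of the others and 21.1% (17.9 to 24.5) of peaks with both PCGF6 and H2AK119ub1. Among the 723 members with RING1B in both WT lists 15.6% were lost. The share did not differ from that of peaks with both PCGF6 and H2AK119ub1 (31.3%, 28.1 to 34.6) by more than the intervals, and it was 76.1% (74.2 to 78.0) for PCGF6 without H2AK119ub1 and 59.6% (55.6 to 63.5) for peaks with neither. In the Villin line, then, the share was close to that of the other H2AK119ub1-carrying class, which has PCGF6. The Villin WT list chose the members, so the AhCre RING1B lists, which the rule did not use, are the separate measurement.

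In AhCre crypts 723 members had a RING1B peak in the WT list, 68.6% of members against 69.3% of peaks with both PCGF6 and H2AK119ub1 and 46.6% of all. Of these 723, the KO list lacked 154 (21.3%, 18.4 to 24.5), against 44.1% (41.4 to 46.9) of the other peaks and 36.1% of all. Here the share was below that of peaks with both PCGF6 and H2AK119ub1 (30.9%, 27.1 to 35.0), and below PCGF6 only (63.2%) and neither (35.4%). Of the 331 members without an AhCre WT peak, 46 (13.9%) had one in the KO list, against 12.2% of peaks with both and 7.49% of all. Across the lines, 518 of the 723 members (71.6%) kept RING1B in both KO lists and 62 (8.58%) lost it in both, against 10.3% of peaks with both PCGF6 and H2AK119ub1 and 18.2% of all. A further 51 lost it in Villin crypts only and 92 in AhCre crypts only.

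The members that lost RING1B were weak and narrow. Those lost in Villin KO crypts had a median WT score of 12.5 and a median width of 791 bp, against 25.8 and 1824 bp for those kept, and no lost member scored above 35.2. Within quintiles of the WT score the members were lost less often than the pooled other peaks, of which the PCGF6-only class is the largest part. This did not hold against each class. In the lowest Villin quintile 73.3% of members were lost, against 67.4% of peaks with both PCGF6 and H2AK119ub1. In the AhCre line, 2 of the quintiles went the same way, where 59.3% and 42.4% of members were lost, against 48.6% and 37.1% of peaks with neither. The intervals overlapped in each of these 3 cases. In the lowest quintile, 73.3% of members and 87.0% of the others were lost in Villin crypts. In the highest, 3 of 352 members (0.852%, 0.176 to 2.47) were lost, against 13 of 248 peaks with both PCGF6 and H2AK119ub1 (5.24%, 2.82 to 8.80) and 89 of 475 of all others (18.7%, 15.3 to 22.5). In AhCre crypts the same quintiles gave 54.2% and 73.2% in the lowest, with intervals that overlapped in the lowest 3 quintiles, and 8 of 347 members (2.31%, 1.00 to 4.49) against 82 of 419 others (19.6%, 15.9 to 23.7) in the highest. There the classes with both and with neither gave 11% (7.29 to 15.7) and 3.51% (0.428 to 12.1). With the others weighted to the members' scores, their lost share was 49.7% in Villin and 37.7% in AhCre crypts, and weighted to the members' widths 43.5% and 31.5%.

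**Figure D2:**
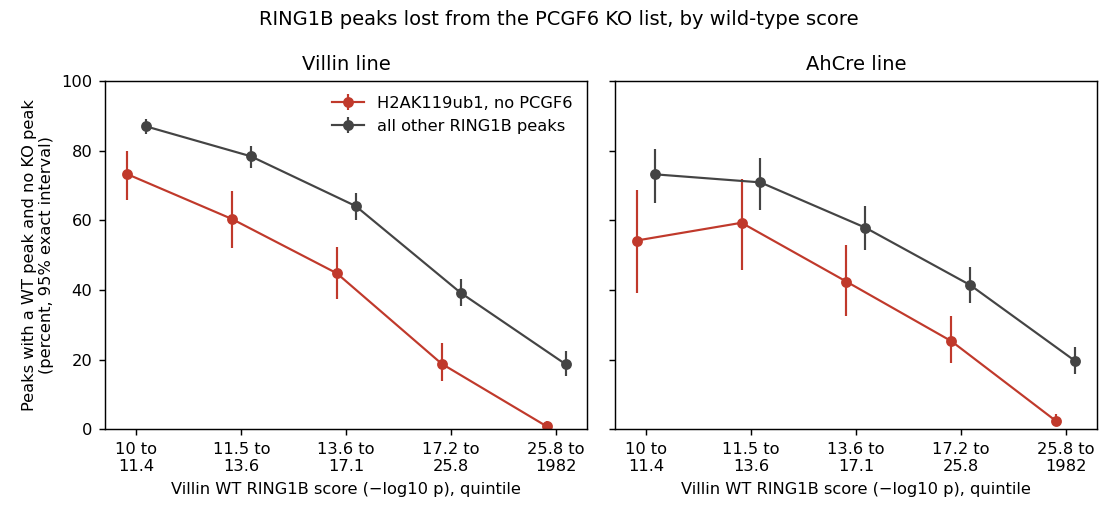
Percent of RING1B peaks with a WT peak and no KO peak (y axis, with 95% exact intervals) by quintile of the Villin WT RING1B score (x axis, −log10 p), for members (red) and all other RING1B peaks (dark grey) in the Villin line (left) and the AhCre line (right). The members' points lie under those of the pooled others in each quintile of both lines, and at 0.852% and 2.31% in the highest.

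RING1B peaks that members kept were narrower in KO lists. In Villin crypts the RING1B peaks over the 720 kept members had a median width of 1552 bp in KO and 1824 bp in WT, and 186 of them were wider in KO (median ratio 0.858). In AhCre crypts the medians over 569 members were 2207 bp in KO and 2953 bp in WT, with a median ratio of 0.863. The other kept peaks gave ratios of 0.855 and 0.827, so the members did not stand apart in this.

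**Figure D3:**
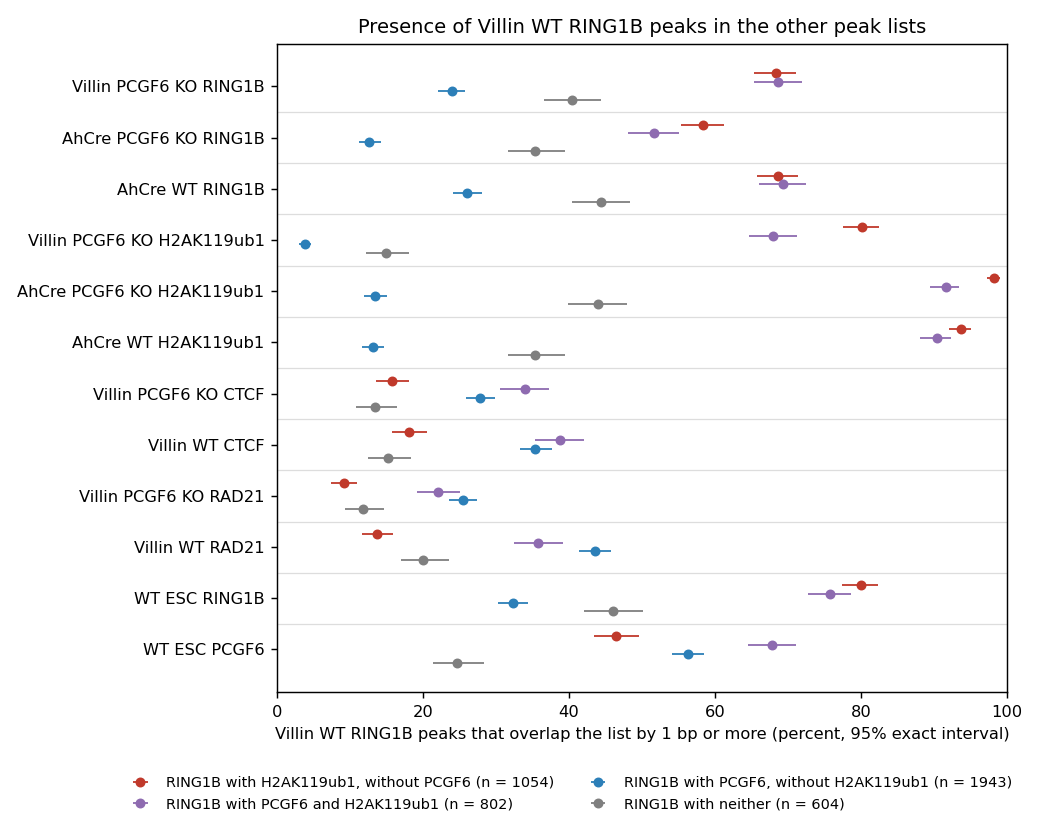
Percent of Villin WT RING1B peaks that overlapped each of 12 other peak lists (rows) by 1 bp or more, with 95% exact intervals, for members (red) and the 3 other classes. Members lie to the right of the PCGF6-only and neither classes in the RING1B and H2AK119ub1 lists, and to the left of both PCGF6 classes in the CTCF and RAD21 lists.

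H2AK119ub1 was kept at most members as well, more so in the AhCre lists. In Villin KO crypts 209 of 1054 members (19.8%, 17.5 to 22.4) had no H2AK119ub1 peak, against 32.0% (28.8 to 35.4) of peaks with both PCGF6 and H2AK119ub1 and 25.1% of all peaks that had the mark. When the centre of the RING1B peak had to lie in the KO peak, a setting added after the data were seen, these were 34.9% and 54.5%. In AhCre crypts the mark was present at 1036 members (98.3%) in KO and 988 (93.7%) in WT. Peaks with both PCGF6 and H2AK119ub1, chosen for the mark in the same way, had it in 91.6% in KO and 90.4% in WT, and all Villin WT RING1B peaks in 52.2% and 49.5%. Of the 988, 11 (1.11%, 0.557 to 1.98) lost it in KO crypts, against 4.41% (3.04 to 6.17) of peaks with both and 7.52% of all. Of the 66 members without it in WT, 59 (89.4%) had it in KO, against 54.5% of peaks with both and 12.6% of all. The AhCre KO list was also the longest of the H2AK119ub1 lists, with 16039 peaks over 31.43 Mb against 13175 over 27.96 Mb in WT, and the part of that difference in the members' values was not tested.

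In 5 members near a gene the mark was lost in both lines. They lay at Prickle4, Smim43, Rerg, the ephrin gene Efnb2 and the phosphatase gene Ptpre, with H2AK119ub1 scores between 10.2 and 21.2 in Villin WT crypts and between 10.6 and 14.7 in AhCre WT crypts. At Prickle4 RING1B scored 11.1 in Villin KO and 20.7 in Villin WT crypts, and was absent in AhCre KO crypts against 17.2 in AhCre WT crypts. At Efnb2 it scored 10.3 and 12.5 in Villin KO and WT crypts. The score of 21.2 was that at Prickle4, and the other 4 sites scored 11.5 or less in Villin WT crypts, where the median over the list was 13.2.

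None of the 15 members with the highest score near a gene lost RING1B in either line. At Tlx2, a homeobox gene of the enteric nervous system, with Dqx1 beside it, RING1B scored 547 in Villin KO, 837 in Villin WT, 721 in AhCre KO and 891 in AhCre WT crypts. At Hmx2, with Bub3, the scores were 410 and 569 in Villin KO and WT crypts and 597 and 785 in AhCre KO and WT crypts. The homeobox gene Dmbx1 had 363 and 556 in Villin KO and WT crypts and 634 and 737 in AhCre KO and WT crypts. In each of these lists the 3 genes stood far above the members' median. Shisa3, Slc32a1, the vesicular transporter of GABA and glycine, Nkx2-3, a homeobox gene of the gut mesenchyme, Hoxa13, En2, Irx5 and the pair Dlx1 and Dlx2 were also among the 15, with Villin WT scores from 417 down to 263. Cdkn2a, the cell cycle inhibitor locus of p16 and p19ARF, scored 150 in Villin KO, 254 in Villin WT, 281 in AhCre KO and 403 in AhCre WT crypts. It was the 1 member gene among 7 cell cycle inhibitors, and its site had no PCGF6 in ESC, where RING1B scored 65.5. The locus was not free of PCGF6 in crypts. All 3 inhibitors with a RING1B peak, Cdkn2a among them, also had a RING1B peak with PCGF6, and the member lay 9445 bp from the nearest PCGF6 peak. Igf2bp1, an RNA-binding protein of fetal tissues, Gjc1, a connexin gene, and Pcca were among the 15 too.

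The widest members formed long domains at transcription factor genes. The RING1B peak across Dlx1 and Dlx2 spanned 22921 bp in Villin KO, 22904 bp in Villin WT, 22656 bp in AhCre KO and 23092 bp in AhCre WT crypts. That over Nkx2-3 spanned 21006 bp in Villin KO, 22531 bp in Villin WT, 21168 bp in AhCre KO and 22304 bp in AhCre WT crypts. Both domains had like widths in the 4 lists. At Hoxd8 to Hoxd11 the summed width was 21100 bp in Villin KO and 21986 bp in Villin WT crypts, and 28000 bp in AhCre KO against 56935 bp in AhCre WT crypts. Pax3, the paired box gene of neural crest and muscle, had 20122 bp in Villin KO, 19268 bp in Villin WT, 31165 bp in AhCre KO and 39815 bp in AhCre WT crypts. In the AhCre lists, peaks over these last domains reached beyond the Villin member.

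**Figure D4:**
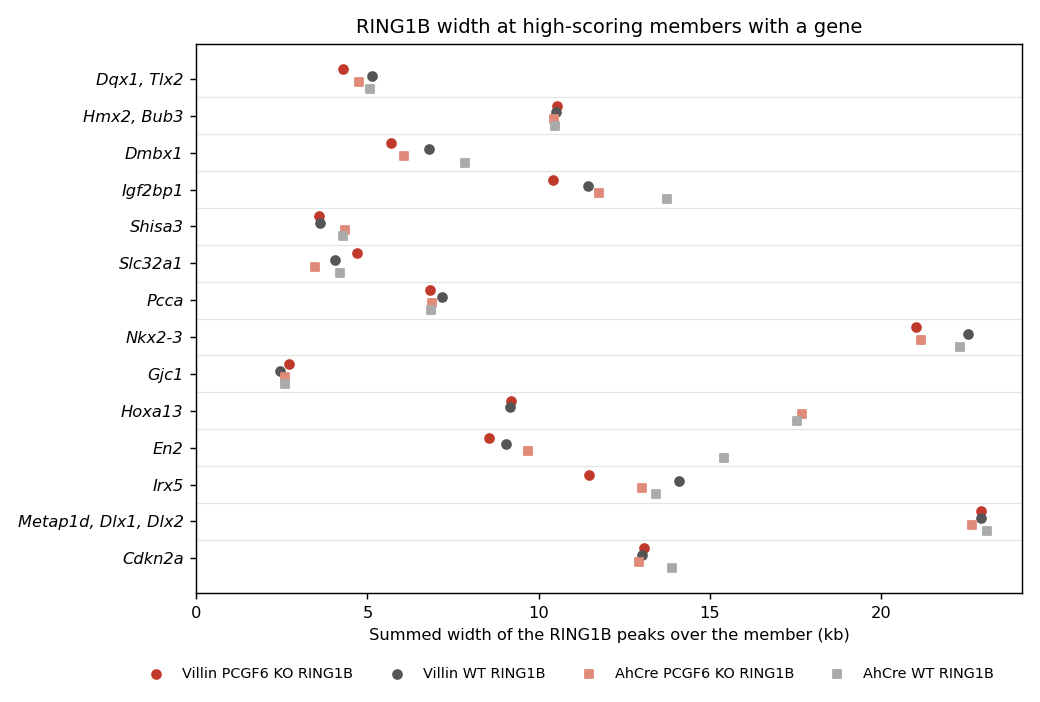
Summed width in kb (x axis) of the RING1B peaks that overlap each of 14 of the 15 highest-scoring members near a gene (rows, by score), in Villin KO, Villin WT, AhCre KO and AhCre WT crypts, 1 library each. Every member shown has a point in all 4 lists, from the narrow site at Gjc1 to the domain of 22904 bp at Dlx1 and Dlx2, and the widest gap between lines is at Hoxa13.

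Of the 62 members with RING1B in both WT lists and in neither KO list, 39 lay near a gene. The 10 strongest of these scored 15.9 to 19.5 in Villin WT crypts and 10.2 to 16.5 in AhCre WT crypts. They lay at Adamts8, an extracellular protease gene, Oxt, the oxytocin gene, Gli2, Utf1, a chromatin factor of pluripotent cells, Gfra1, a co-receptor for GDNF, F2r, the thrombin receptor gene, Cbx8, Stac2, Fgf4 and Fa2h. Of these, only the site at Gli2 also lost H2AK119ub1 in Villin KO crypts (18 in WT), while in AhCre crypts the mark scored 17 in KO and 33.6 in WT there. At the other 9 the mark was listed in both KO lists. At Cbx8, a CBX subunit of canonical PRC1, H2AK119ub1 scored 15.0 in Villin KO and 24.5 in Villin WT crypts, and 55.3 in AhCre KO and 39.2 in AhCre WT crypts. Another member at Cbx8 kept RING1B in Villin crypts, at 12.5 in KO and 10.4 in WT. In AhCre crypts that member scored 11.9 in WT and had no KO peak.

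The strongest single losses in Villin crypts near a gene were at Slc4a11 (29.1 in WT), Cdk5r1 (27.1), Dlx5 (25.8), Slc25a4 (24.5) and Kalrn (23.7). Dlx5, a homeobox gene of limb and jaw, had RING1B in AhCre crypts, at 17.6 in KO and 17.2 in WT. Dhh, a Hedgehog ligand, scored 21.9 in Villin WT crypts with no KO peak, and 13.3 in AhCre KO against 54.1 in AhCre WT crypts. A site at Lmx1b, a LIM homeobox gene, scored 20.7 in Villin WT crypts with no KO peak, and 10.1 in AhCre KO against 18.2 in AhCre WT crypts. Another member at Lmx1b was kept in both lines, at 10.3 in Villin KO and 22.2 in Villin WT crypts, and 10.3 in AhCre KO and 10.9 in AhCre WT crypts. Of the 10 strongest Villin losses near a gene, 5 had no RING1B in AhCre WT crypts and so could not be lost there. That at Adamts8 was lost in both lines, as was that at Oxt, of the same score of 19.5.

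Within 1 kb of either end of a protein-coding gene lay 651 members (61.8%, 58.8 to 64.7), against 68.4% of the other peaks and 66.8% of all, and they touched 633 of 21887 genes (2.89%). Over an available promoter window lay 308 members (29.2%), against 42.3% of the others and 39.1% of all. Between genes lay 180 members (17.1%), against 13.1% of the others. The members between genes were as strong as those at promoters, with a median score of 23.2 against 20.7, and 27.2% (20.9 to 34.3) and 24.7% (20 to 29.9) of them were lost in Villin KO crypts. Those inside gene bodies only had a median score of 15.9, and 42.2% (35.1 to 49.7) were lost.

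Hox genes had members most often among 30 lists of genes. A member lay at 26 of 39 Hox genes, the positional factors of the body axis, and 31 of the 33 members there were in the Villin KO list. Of 118 other homeobox factors, 70 had a member, and 71 of their 85 members were kept. Over all 651 members near genes, 453 were kept and 30.4% lost. Members lay at 12 of 23 forkhead, 6 of 12 Sox, 7 of 13 T-box and 12 of 32 GATA and zinc finger factors. The shares ran from 37.5% to 66.7%, against 2.89% over all protein-coding genes. A member needs a RING1B peak, which lay at 34 of 39 Hox and 94 of 118 other homeobox genes, against 3112 of 21887. Of genes with such a peak, 76.5% of Hox and 74.5% of other homeobox genes had a member, against 20.3% of all. On this base the gap was smaller, and neuronal and glial genes (85.7%) and Wnt ligands (8 of 10) stood above Hox genes. A RING1B peak with PCGF6 lay at 10 Hox and 22 other homeobox genes, so these families were not particular to members. These lists were drawn up with the classes of genes under RING1B already known, so the shares describe the members and are no separate evidence. Neighbouring genes share peaks, and members of 1 Hox cluster often lay in the same ESC peak.

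**Figure D5:**
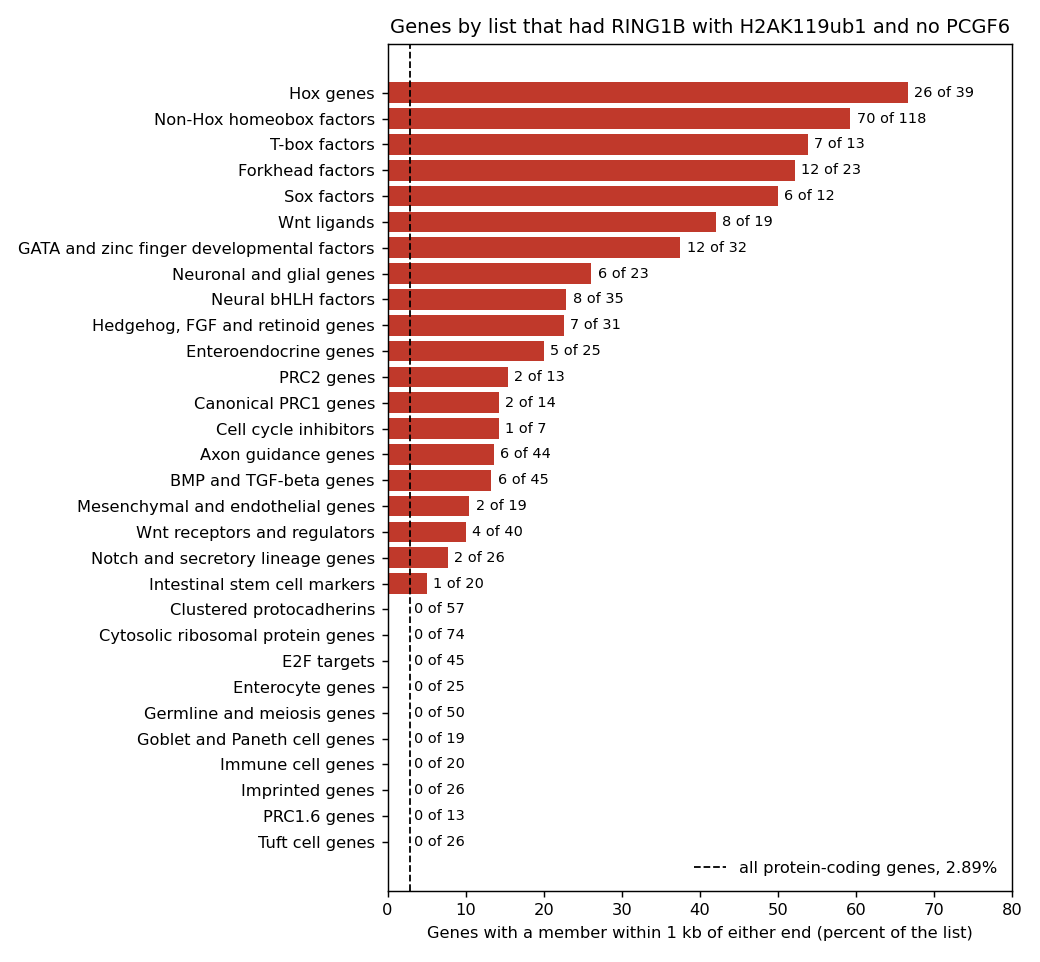
Percent of the genes of 30 lists (rows) with a member within 1 kb of either end (x axis), with the number of genes beside each bar and the 2.89% of all protein-coding genes as a dashed line. Hox genes (26 of 39) and other homeobox factors (70 of 118) have the longest bars, and 10 lists have none.

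In the Hox, forkhead, Sox and T-box families the members missing from the Villin KO list scored 13.6 or less in WT. Some members as weak were kept, such as 1 at Hoxb4, at 12.5 in KO and 11.4 in WT. Among other homeobox factors stronger sites were lost too, such as those at Dlx5 (25.8) and Lmx1b (20.7). Of the sites named below as lost, those at Hoxc10 (12.4) and Tbx4 (16.3) and 1 at Foxf1 (13.3) had RING1B in AhCre KO crypts. Among Hox genes the RING1B scores in Villin crypts were 176 in KO and 275 in WT at Hoxa13, and 108 in KO and 154 in WT at Hoxc10 and Hoxc11. The 2 sites lost there, 1 at Hoxc10 and 1 at Hoxb6, scored 13.6 and 12.5 in WT. Among forkhead factors Foxl2, a gonadal regulator, had 177 in KO and 253 in WT, and Foxd3, of the neural crest, had 115 in KO and 134 in WT. The 4 forkhead sites lost were 2 at Foxf1, 1 at Foxl1 and 1 at Foxf2, genes of the gut mesenchyme, with WT scores of 11.4 to 13.6. Another member at Foxf1 was kept, at 31.9 in KO and 17.1 in WT. Another at Foxf2 was kept too, at 36.2 in KO and 40.9 in WT. Among Sox factors Sox17, an endoderm factor, had 45.7 in KO and 98.3 in WT, while the sites at Sox18 and Sox14 were lost at 12.5 and 11.4. In the T-box family Tbx2 had 135 in KO and 211 in WT, and a site of score 12.0 at Tbx4 was lost.

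Signalling genes were mixed in how often they had a member and kept it. A member lay at 42.1% of Wnt ligands and at 10.0% to 22.6% of the genes of the other 3 signalling lists, and from 28.6% to 57.1% of the members in the 4 lists were lost in Villin KO crypts, against 30.4% of all members near genes. With 4 to 8 members in each list, these shares were not tested against each other. Of 19 Wnt ligands, 8 had a member, and 5 kept it in Villin KO crypts. Wnt5a scored 17.7 in KO and 39.6 in WT, Wnt11 scored 36.4 and 38.4, and sites at Wnt6, Wnt7b and Wnt16 were lost at 17.6, 15.9 and 14.1. Of 40 Wnt receptors and regulators, 4 had a member, and those at Sfrp2 and Nkd1 were lost. Of 31 Hedgehog, FGF and retinoid genes, 7 had a member. Aldh1a2, an enzyme of retinoic acid synthesis, scored 158 in KO and 222 in WT. Ptch1, the Hedgehog receptor, scored 30.4 in both Villin lists, but had no RING1B peak in AhCre KO crypts and did have one in AhCre WT crypts. Sites at Dhh, Fgf3, Fgf4 and Fgf18 were lost in Villin KO crypts. Of 45 BMP and TGF-beta genes, 6 had a member, led by the activin antagonist Fst with 89.5 in KO and 93.3 in WT. Neural bHLH factors had members at 8 of 35 genes and axon guidance genes at 6 of 44.

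Among genes of the crypt epithelium, no enterocyte gene of 25, no goblet or Paneth gene of 19 and no tuft cell gene of 26 had a member. At the 2.89% over all genes, lists of these sizes would hold about 1 or none, so these zeros are near the background. The rule also leaves out RING1B peaks with PCGF6. Such a peak lay at 1 of the 25 enterocyte, 0 of the 19 goblet or Paneth and 6 of the 26 tuft cell genes. It also lay at 8 of 20 stem cell markers and 12 of 26 Notch and secretory lineage genes, against 2235 of all 21887 genes. Among the 20 stem cell markers (5.00%) Bmi1, which is also the PCGF4 gene of canonical PRC1, had a member. The member at Bmi1 and its neighbour was 396 bp wide, 1011 bp from a PCGF6 peak, and scored 11.4 in Villin WT crypts with no KO peak over it. The AhCre RING1B peaks that covered it were much wider, 15662 bp in KO and 16879 bp in WT, and scored 210 and 296. The lines are thus not compared at a like site. Of 26 Notch and secretory lineage genes 2 had a member (7.69%). Gfi1 had 143 in Villin KO and 224 in Villin WT crypts, and a site at Notch3 was lost at 14.7. Of 25 enteroendocrine genes 5 had a member (20%), with Neurod2 at 96.6 in KO and 194 in WT and Cck, the cholecystokinin gene, at 16.3 in KO and 16.0 in WT. Sites at Rfx6 (15.9) and Lmx1a (10.4) were lost in Villin KO crypts. Of genes of other cell types in the gut wall, members lay at 6 of 23 neuronal and glial genes, 2 of 19 mesenchymal and endothelial genes (Foxl1 and Kdr, both lost) and 0 of 20 immune genes. Peak lists hold no expression, so the cell makeup of the crypts could not be read from these markers.

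Some Polycomb genes had members. Canonical PRC1 genes had members at 2 of 14 (14.3%), Cbx8 and Bmi1. PRC2 genes had members at 2 of 13 (15.4%), Epop (21.0 in Villin KO and 33.8 in Villin WT crypts) and Phf19 (10.3 in KO and 23.2 in WT). Both shares lay above the 2.89% over all protein-coding genes, but each rests on 2 genes and was not tested. None of 13 PRC1.6 genes had a member. A RING1B peak with PCGF6 lay at 6 genes of canonical PRC1, 1 of PRC2 and 6 of PRC1.6. Such a peak also lay at 11 of 74 ribosomal protein genes, 5 of 50 germline genes and 5 of 45 E2F targets, all with 0 members. The rule removes sites with PCGF6, so these zeros follow in part from it. Imprinted genes and clustered protocadherins had 0 members of 26 and 57, likewise near what 2.89% would give.

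Most members had RING1B in ESC as well. The ESC RING1B list held 843 of 1054 members (80%, 77.4 to 82.4), against 75.8% of peaks with both PCGF6 and H2AK119ub1, 45.2% of all other peaks and 53.5% of all. With the peak centre required to lie in the ESC peak the shares were 75.7% of members, 72.1% of peaks with both PCGF6 and H2AK119ub1 and 42.5% of all other peaks. Among members near Hox genes 32 of 33 were in the list, and near other homeobox genes 82 of 85. Members with ESC RING1B had a median crypt score of 19.5 and a median width of 1470 bp, against 15.9 and 1004 bp for the 211 without it.

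In ESC many of these sites also lay under PCGF6 peaks. The ESC PCGF6 list overlapped 490 members (46.5%, 43.4 to 49.6), against 53.4% of the other peaks and 51.7% of all. This value rested on the overlap rule: with the peak centre required to lie in the ESC PCGF6 peak it was 29.2% (26.5 to 32.1), against 54.5% with both PCGF6 and H2AK119ub1 in crypts, 51.7% with PCGF6 only and 19% with neither. Members with RING1B and PCGF6 in ESC numbered 460 and had a median ESC RING1B score of 199, against 71.4 for the 383 with RING1B only. In Villin KO crypts 27.4% (23.4 to 31.7) of the 460 and 32.6% (28.0 to 37.6) of the 383 were lost, against 39.2% (32.1 to 46.7) of the 181 members with neither in ESC. The median crypt scores of these members were 21.7, 17.8 and 15.9. Peaks with both PCGF6 and H2AK119ub1 in crypts ran the same way, with 22.6%, 33.8% and 49.6% lost, so the order is not particular to members. A further 30 members had ESC PCGF6 only.

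Members without ESC RING1B numbered 104 near a gene. The pluripotency gene Sox2 had no RING1B and no PCGF6 in ESC, and in crypts RING1B scored 39.1 in Villin KO, 65.7 in Villin WT, 97.3 in AhCre KO and 50 in AhCre WT. Over that site RING1B spanned 2502 bp in Villin KO and 7996 bp in Villin WT crypts, and 7053 bp and 6941 bp in AhCre KO and WT crypts. Trim71, an RNA-binding protein gene, and Fgf4, a growth factor gene, were absent from the ESC RING1B list too, with Trim71 at 39.1 in Villin KO and 54.3 in Villin WT crypts. The strongest such members were at Igf2bp1 (218 in Villin KO and 419 in Villin WT crypts, 305 in AhCre KO and 437 in AhCre WT crypts) and Gjc1 (232 and 292, then 448 and 357). Sall3, Cecr2, Plag1 with Chchd7, Ap1s2 and Rdx had Villin WT scores of 132 down to 55.1, and the members at these genes had RING1B in the 4 crypt lists. Another member at Sall3 did overlap an ESC RING1B peak, of score 22.0. Utf1, a gene of pluripotent cells like Sox2, did have a peak in ESC, of score 13.0.

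Members overlapped insulator and cohesin sites less often than the classes with PCGF6 did, as did the other class without it. CTCF, the insulator protein, overlapped 166 members (15.7%) in Villin KO and 190 (18%) in Villin WT crypts, against 33.9% and 38.7% of peaks with both PCGF6 and H2AK119ub1, 13.4% and 15.2% of peaks with neither, and 24.1% and 29.1% of all. RAD21, a subunit of the cohesin ring, overlapped 96 (9.11%) in Villin KO and 144 (13.7%) in Villin WT crypts, against 22.1% and 35.8% of peaks with both, 11.8% and 20% of peaks with neither, and 19% and 31.8% of all. Among the 301 members left at scores of 20 or more in the RING1B, H2AK119ub1 and PCGF6 lists, the WT shares were 31.6% for CTCF and 21.3% for RAD21. Of the members with a WT peak, 28 of 190 lost CTCF (14.7%, 10.0 to 20.6, against 20.1% of all) and 57 of 144 lost RAD21 (39.6%, 31.5 to 48.1, against 44.5% of all). Both shares had intervals that took in the value over all peaks. At Hoxa13 CTCF scored 146 in KO and 173 in WT and RAD21 92.7 in KO and 86.1 in WT, and at Sox2 they scored 99.0 in KO and 93.5 in WT, and 40.8 in KO and 28.3 in WT.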

How the data were processed

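Per the labels, formaldehyde-fixed crypt or ESC chromatin was sheared to 500 bp. H2AK119ub1 chromatin carried 5% Drosophila S2 chromatin. The deposited scores are −log10 p values of each peak as the authors' peak caller gave them, and whether q was meant is not stated. MACS2 2.1.1, Bowtie (1.1.2, 1.2.2) and the builds dm6, hg38 and mm10 stand in the submitters' processing notes, with no role for each. Peaks were called per sample. The 6 inputs have no list.

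Chromosomes 1 to 19, X and Y were kept, and starts made 1-based. Sharing meant 1 bp of overlap. Shares have exact Clopper-Pearson 95% intervals. Genes and promoter windows came from RefSeq (GRCm38.p6). The ESC titles and antibody tags were followed where a description line exchanges the names.

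The members, the 30 gene lists and the alternatives were chosen with earlier results of these data known. Named genes were those at the 15 strongest and 5 widest members, the 10 strongest lost from Villin KO, lost in both lines or absent in ESC, those that lost H2AK119ub1 in both lines, list genes, and peaks at the edge of the rule. A few of them are not reported here. Overlap counts were checked against bedtools 2.31.1 and differed in 0 of 15 pairs. Software was scipy 1.17.1, pandas 2.3.3, numpy 2.4.6 and matplotlib 3.10.9 under Python 3.11.15.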

Additional observations from a re-analysis of the deposited data

Results flagged for a closer look

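The median ratio of H2AK119ub1 width at members lay on opposite sides of 1 in the Cre lines. Over the 845 members with the mark in both Villin genotypes the median ratio of KO to WT width was 0.890 (medians of 2028 bp in KO and 2511 bp in WT, 309 wider in KO). Over the 977 members with it in both AhCre genotypes the median ratio was 1.03 (medians of 4205 bp in KO and 3776 bp in WT, 570 wider in KO). Peaks with both PCGF6 and H2AK119ub1 gave ratios of 0.900 in the Villin and 1.00 in the AhCre line, close to those of the members, and peaks with neither gave 1.08 in the AhCre line. The difference between the lines was not tested, since each list is 1 library. The whole lists covered 8.54 Mb in Villin KO and 10.22 Mb in Villin WT crypts, and 31.43 Mb in AhCre KO and 27.96 Mb in AhCre WT crypts, and the part of this in the members' widths was not tested. The Villin WT list was also used to choose the members.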

How the results depend on the processing

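Of 98 alternative values for 14 results, 51 stayed within the interval of the reported value (counts: within 1.5 times) and 47 did not, and the cause was not tested. The numbers below are given in percent unless they are counts or widths. With PCGF6 required to be absent from the AhCre WT, AhCre KO and ESC lists, 562 members were left, of which 34.7 were lost in Villin KO RING1B, 24.6 lacked Villin KO H2AK119ub1, 68.0 were in ESC RING1B, 0 in ESC PCGF6 by construction and 48.9 near a gene end, with a median width of 1240 bp, 13 Hox genes and 24 other homeobox genes. With scores of 20 or more in the RING1B, H2AK119ub1 and PCGF6 lists, 301 were left, with 24.6 lost in Villin and 15.3 in AhCre RING1B, 36.9 without Villin KO H2AK119ub1, 89.4 in ESC RING1B, 26.9 in ESC PCGF6, 70.1 near a gene end, 31.6 with WT CTCF, 21.3 with WT RAD21 and a median width of 3848 bp. With 50% of the peak to be shared, the lost shares were 39.8 (Villin) and 25.6 (AhCre), 35.1 lacked Villin KO H2AK119ub1, and 75 and 25.1 were in ESC RING1B and PCGF6. With sharing within 1 kb, 28.1 were lost in Villin, 15.0 lacked the mark and 50.9 were in ESC PCGF6. With lists of equal length 16.6 (Villin) and 14 (AhCre) of members were lost, against 42.7 and 33.2 of the other peaks. Per H2AK119ub1 peak, 27.5 lost all their members in Villin. With H2AK119ub1 over 50% of the peak 17, and with the mark in both WT lists 16.7, lacked it in Villin KO. Within 5 kb of a gene end lay 77.5, in a gene body 79.1 and over a promoter window 29.2.

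Added after the data were seen, the centre rule gave 37.2 lost in Villin (others 66.2), 34.9 without the mark, 75.7 in ESC RING1B and 29.2 in ESC PCGF6. Members with RING1B in both WT lists gave 15.6 lost in Villin, 16.6 without the mark, 21.0 with WT CTCF and a median width of 1891 bp. The other peaks' lost share, 62.4 and 44.1 as found, was 49.7 and 37.7 at the members' scores and 43.5 and 31.5 at their widths. In each of these settings where both were computed, members were lost less often than the pooled other peaks. This did not hold against each class. Under the centre rule 36.7 of peaks with both PCGF6 and H2AK119ub1 were lost in Villin and 34.6 in AhCre, against 37.2 and 23.2 of members. No paired analysis was possible because every group has 1 library and the labels give no replicate numbers. Read depth is unknown, and a peak under a score of 10 is not listed.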
